A study of Mus musculus with 2 samples.

Results

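The clustered protocadherin genes lie in 3 neighbouring groups, named alpha, beta and gamma, on mouse chromosome 18. They were taken from the gene tables of ES cells and E10.5 forebrain as the entries on chromosome 18 whose symbol starts with *Pcdha*, *Pcdhb* or *Pcdhg* followed by a digit or the letter a, b or c. The annotation of the same genome build (NCBIM37, mm9) holds 25 such genes, and the tables list 24 of them among 29311 genes in all. The listed entries are 2 for the alpha cluster, 21 for the beta cluster and 1 for the gamma cluster. The remaining gene, *Pcdhb1* (ENSMUSG00000051663), is not listed. It is assumed to be at 0 in both samples, as the tables list no gene that is at 0 in both. A gene may also be absent for another reason, which was not tested.

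The study compared wild type (WT) embryonic stem cells of the line E14 with WT forebrain of B6CBAF1/J embryos of the embryonic stage E10.5 (days of gestation). The sample labels describe RNA from a set number of cells in each case, whereas the methods of the study state that forebrain RNA came from single embryos. Ribosomal RNA was removed, strand-specific single-end libraries were sequenced, and a value per gene that the authors call RPKM (reads per kb of exon, scaled per sample) was deposited. There is 1 sample per cell type and no replicate, so no difference below was tested, and every interval covers the counting of reads only. Forebrain is a dissected tissue of many cell types, and in bulk RNA fewer cells of a type cannot be told apart from less RNA per cell.

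Clustered protocadherins are cell surface proteins of the cadherin superfamily with extracellular repeats that bind the same isoform on an adjacent cell. Single neurons use different combinations of isoforms, chosen by stochastic promoter activity that involves CTCF, cohesin and DNA methylation, and these combinations give neurons a surface identity that serves the self-avoidance of their branches. In the alpha and gamma clusters each variable first exon, with a promoter of its own, is spliced to a set of constant exons that encode a shared cytoplasmic domain. The beta genes have no constant exons, and each encodes a whole protein in a single large exon.

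The way in which the genes are annotated decides what can be seen of each cluster. In the deposited tables the span of the alpha cluster is covered by 1 entry, named *Pcdha1* (ENSMUSG00000007440, chromosome 18, 37089939 to 37347311), which joins 10 annotated transcripts with 10 distinct first exons. The same entry carries the symbol *Pcdha11* in the GENCODE annotation of this build. Likewise the span of the gamma cluster is covered by 1 entry, *Pcdhga11* (ENSMUSG00000023036, chromosome 18, 37833989 to 38001527), with 10 transcripts and 10 distinct first exons, and with the symbol *Pcdhgc5* in the GENCODE annotation. The values of both entries therefore sum over the isoforms annotated in them, and a variable exon outside these transcripts adds no reads to them. The C-type isoforms (*Pcdhac1*, *Pcdhac2*, *Pcdhgc3*, *Pcdhgc4* and *Pcdhgc5*) have no value of their own here. *Pcdha3* (ENSMUSG00000091969) is a separate alpha entry without the constant exons. Each beta gene has its own entry, so order and position could be examined in the beta cluster alone.

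Reads per gene are not in the tables but were inferred from the low values, which cluster at multiples of what 1 read contributes. By this measure, the genes of the ES cell table hold 42760515 reads and those of forebrain hold 59769277, so that the forebrain library was the deeper of the pair. The median RPKM of all genes was 48.9 in ES cells and 62.4 in forebrain, and the median log2 ratio of forebrain over ES cells was 0.01 on the log2(RPKM + 1) scale. All 8 ES cell markers were at least 2-fold lower in forebrain and all 7 forebrain progenitor markers reported here at least 2-fold higher, as their labels state. *Pou5f1* had an RPKM of 11244 in ES cells and 42.9 in forebrain, and *Emx2*, which encodes a homeodomain factor of the dorsal telencephalon, had 0.91 and 269. Most markers of other cell types were also higher in the forebrain sample. The RPKM of 6 erythroid markers summed to 373 in ES cells and 771417 in forebrain. For 6 mesenchyme markers the sums were 63.0 and 18114, and for 5 endothelial markers 658 and 1897. The endothelial marker *Pecam1* made up most of the ES cell sum and was lower in forebrain, with 551 and 317. No marker of these lists was at 0 in either sample.

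Every listed clustered protocadherin entry had a higher RPKM in forebrain than in ES cells (24 of 24, compared with 50.6% of all genes). On the log2(RPKM + 1) scale, 19 of the 24 were at least 2-fold higher in forebrain, compared with 25.8% of all genes, and 0 were at least 2-fold lower, compared with 23.3% of all genes. The 19 comprise 17 of 21 beta genes, the gamma entry and the large alpha entry. The median log2 ratio was 2.05 over the 24 entries. Most ES cell values lie below the pseudocount of 1, and with a pseudocount of 5 the entries at least 2-fold higher numbered 11, compared with 20.7% of all genes. Without replicates this describes these libraries, and the spread between samples of a cell type is not known.

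**Figure D1:**
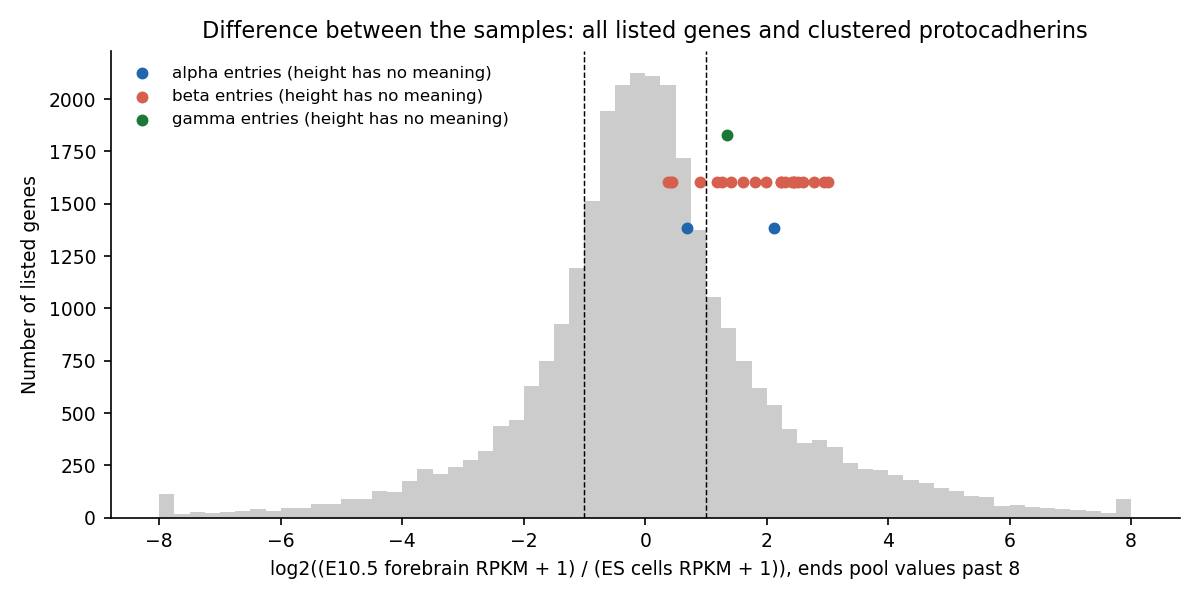
Histogram of the log2 ratio of E10.5 forebrain over ES cells (log2 of RPKM + 1, x axis) for the 29311 listed genes, with dots for the alpha, beta and gamma entries and dashed lines at a 2-fold difference. The genes centre near 0 with a median of 0.01, while the clustered protocadherins lie between 0.38 and 3.01, with 19 of 24 to the right of the upper dashed line.

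Detection differed as well. An RPKM above 0 was found for 20 of 24 entries in ES cells (90.9% of all genes) and for 24 of 24 in forebrain (92.1% of all genes). The 4 entries at 0 in ES cells are listed only because forebrain is above 0, and the unlisted *Pcdhb1* is left out of these counts. Most of the ES cell values rest on very few reads: 10 of 24 entries had at least 3 reads in ES cells, compared with 76.8% of all genes, whereas in forebrain all 24 did, compared with 79.2% of all genes. With at least 10 reads asked for, 3 entries remained in ES cells and 21 in forebrain, and the shares of all genes were 65.7% and 69.5%.

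The 3 clusters differed in level. The *Pcdha1* entry had an RPKM of 0.59 in ES cells, from 12 reads over 24688 bp of exon (exact Poisson 95% interval 0.31 to 1.04). In E10.5 forebrain it had 5.95 from 179 reads (5.10 to 6.88). Forebrain was thus 10.1-fold higher (95% interval 5.59 to 19.7, exact binomial interval on the reads), and the intervals of the levels do not overlap. *Pcdha3* had 0.25 in ES cells and 1.01 in forebrain. Its values come to 0.50 of a read and to 3.01 reads, both at or under the floor of 3 reads, and no fold is given.

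The gamma entry stood apart from the rest of the clusters. *Pcdhga11* had an RPKM of 70.0 in ES cells from 1661 reads (66.7 to 73.5) and of 179 in forebrain from 6349 reads (175 to 184), a 2.56-fold difference (2.43 to 2.71). It was the single clustered protocadherin entry above the median of all genes, at percentile 53.9 of the listed genes in ES cells and 62.3 in forebrain. In ES cells it held 1661 of the 1748 reads of all clustered protocadherins.

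Entries that pool isoforms are understated by RPKM, because the exons of all isoforms count towards their length. When the reads were divided by the mean length of the annotated transcripts (3465 bp for *Pcdha1* and 4879 bp for *Pcdhga11*), the level of *Pcdha1* was 4.20 in ES cells and 42.4 in forebrain, and that of *Pcdhga11* was 416 and 1066. On this scale *Pcdha1* lay above the beta median of 0.65 in ES cells and above the highest beta gene, at 21.2, in forebrain, so its rank against single beta genes depends on the length used. As sums that use no length, the 2 alpha entries had 0.29 reads per 1000000 reads on genes in ES cells, the 21 beta genes 1.76 and the gamma entry 38.8. In forebrain the corresponding values were 3.05, 10.3 and 106.

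The relative difference between the samples depended on how each cluster was summarised. Summed over each cluster, the reads corresponded to a 9.84-fold higher level in forebrain for alpha (5.68 to 20.1), a 5.52-fold higher level for beta (4.34 to 7.11) and a 2.56-fold higher level for gamma (2.43 to 2.71). The counting intervals of alpha and beta overlap, and that of gamma lies below both. Without *Pcdhb17* the beta ratio was 7.52-fold (5.58 to 10.1), and without *Pcdhb19*, which with *Pcdhb22* had the most beta reads over both samples, it was 5.06-fold (3.93 to 6.56). By the median log2 ratio per entry, in contrast, beta was highest with 2.23, followed by alpha with 1.41 and gamma with 1.35. The alpha value lies midway between *Pcdha1* with 2.13 and *Pcdha3*, at or under the floor of reads, with 0.69. This order depends on the pseudocount and, for alpha and gamma, on the scaling. It held with a pseudocount of 0.1, but with 5 gamma was highest with 1.30, followed by beta with 0.80 and alpha with 0.58. With each sample divided by the sum of its values, gamma (1.62) lay just above alpha (1.60). The reads of the beta cluster numbered 75 in ES cells (59.0 to 94.0) and 617 in forebrain (569 to 668).

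**Figure D2:**
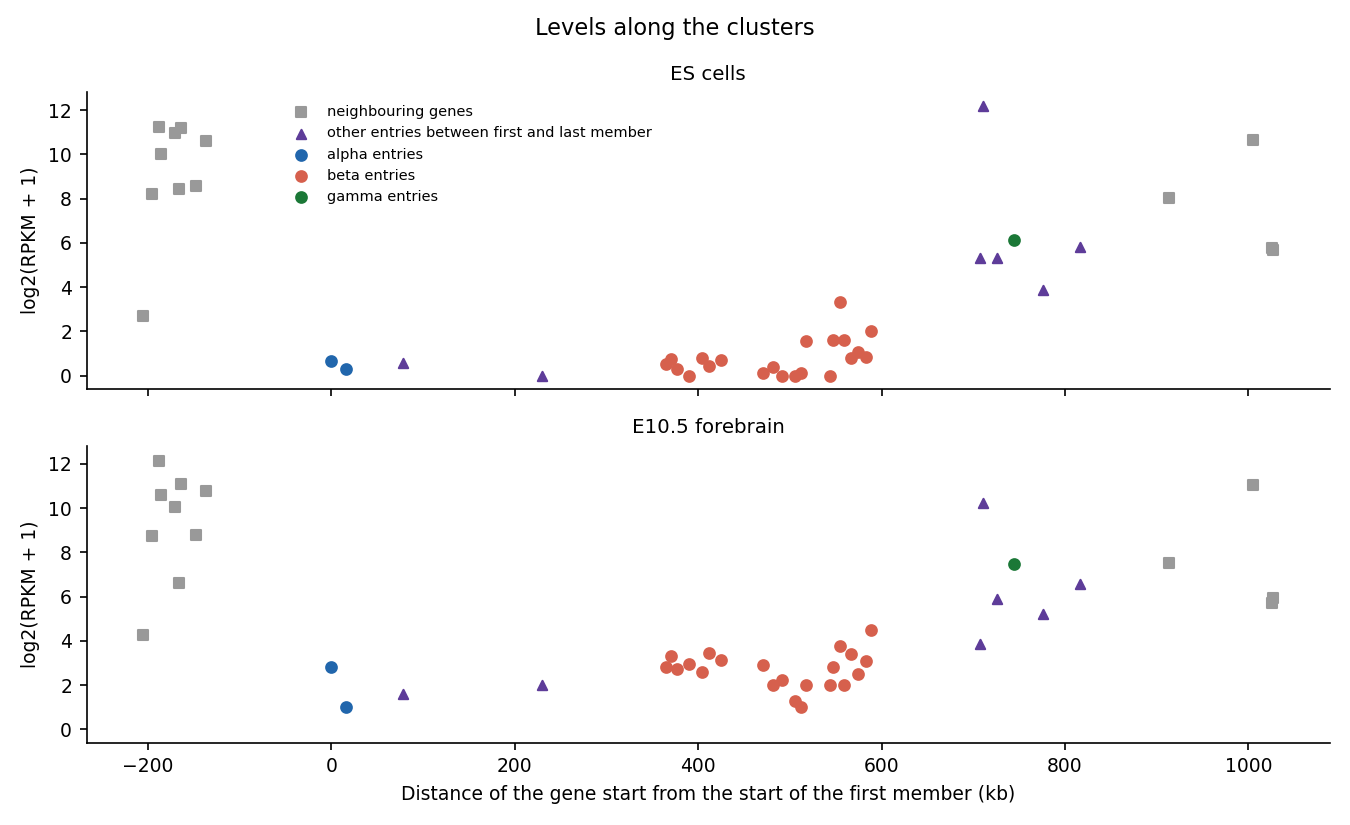
Level of each entry, as log2(RPKM + 1), against the distance of its start from that of the first member in kb, for ES cells (top) and E10.5 forebrain (bottom). Alpha and beta entries stay below a value of 4 in ES cells, the gamma entry lies above 6, and the neighbouring genes on either side (grey squares) mostly lie higher, with *Taf7* the highest of the purple triangles.

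The beta genes allow a gene by gene description. Of the 21, 19 have a single exon in the annotation, with 2350 to 7131 bp in all, and *Pcdhb20* is annotated as a pseudogene. In ES cells the median RPKM was 0.65, with 4 genes at 0 and the highest at 9.15. In E10.5 forebrain the median was 6.05 and the values extended from 1.01 to 21.2. The median gene lay at percentile 13.6 of the listed genes in ES cells and at 27.7 in forebrain, so the beta genes were weakly expressed in both samples, and 0 of 21 reached the median of all genes in either. Their median log2 ratio was 2.23 with a pseudocount of 1, and 2.68 on RPKM ratios with genes that round to 0 reads in ES cells set to their lower bound.

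**Figure D3:**
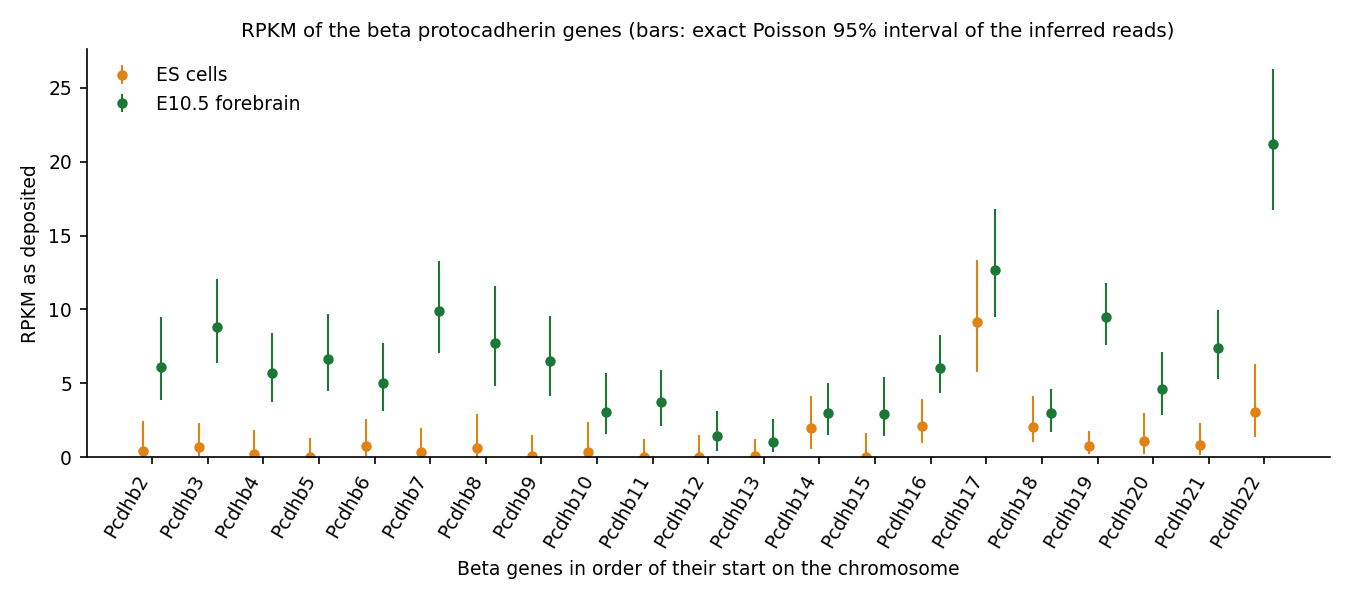
RPKM of the 21 listed beta genes in order along the chromosome, in ES cells (orange) and E10.5 forebrain (green), with exact Poisson 95% intervals of the inferred reads as bars. The forebrain value is higher for every gene, and the intervals of the samples overlap for 8 of the 21 genes, among them *Pcdhb14*, *Pcdhb17* and *Pcdhb18*.

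The listed genes fall into 3 stretches where the distance between neighbouring starts exceeds 20 kb, namely *Pcdhb2* to *Pcdhb8*, *Pcdhb9* to *Pcdhb14* and *Pcdhb15* to *Pcdhb22*. The gaps between them are 45.8 kb and 25.9 kb from start to start. The unlisted *Pcdhb1* starts at 37424652, more than 20 kb before *Pcdhb2*, and belongs to none of the stretches. The stretches were drawn after the values had been seen, but from positions alone.

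The first stretch was close to the limit of detection in ES cells and of similar level from gene to gene in forebrain. Its 7 genes had 8 reads together in ES cells and 201 in forebrain, a 16.5-fold higher level (8.39 to 39.6). *Pcdhb2* (chromosome 18, 37454494 to 37457267), the first listed gene of the cluster, had an RPKM of 0.44 in ES cells from 1 read and of 6.10 in forebrain from 21 reads. *Pcdhb7* had 0.35 in ES cells and 9.91 in forebrain. The log2 ratio of *Pcdhb7*, 3.01, was the largest of all beta genes. As it rests on 1 read in ES cells, the 28.3-fold ratio has an interval from 4.79 to 1139. *Pcdhb5* had no read in ES cells and an RPKM of 6.65 in forebrain from 29 reads. Its level in forebrain was at least 6.41-fold higher, taking 3 reads as the floor in ES cells. The other genes of the stretch lay between 0.23 and 0.72 in ES cells and between 4.99 and 8.82 in forebrain, so the samples do not overlap within this stretch.

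The middle stretch was the weakest in forebrain. Its 6 genes had 7 reads in ES cells and 74 in forebrain, a 7.37-fold higher level (3.28 to 18.2). *Pcdhb13* had the lowest forebrain value of the beta cluster, an RPKM of 1.01 from 5 reads, with 0.08 in ES cells. *Pcdhb12* followed with 1.41 from 5 reads, and had no read in ES cells. For these genes the forebrain level was at least 1.02-fold and at least 1.17-fold higher, which says little at this depth. *Pcdhb9* showed the largest difference of the stretch, with 0.10 in ES cells, or 0.25 of a read, and 6.53 in forebrain from 24 reads. It was at least 5.44-fold higher in forebrain. *Pcdhb14* was the exception in ES cells, with 1.94 from 5 reads. It had 2.97 in forebrain from 12 reads, and the 1.53-fold ratio has an interval of 0.53 to 5.83 that includes no difference. *Pcdhb11* had 0 in ES cells and 3.73 in forebrain, and *Pcdhb10* had 0.32 and 3.03.

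The last stretch held most of the beta reads of ES cells. Its 8 genes had 60 reads there, 80.2% of the reads of the beta cluster, and 342 reads or 55.4% in forebrain. The forebrain level was 3.81-fold higher (2.90 to 5.12), an interval that lies below that of the first stretch. This rests in part on *Pcdhb17*, the gene with the most reads in ES cells. Without it, the ratio was 5.48-fold (3.84 to 7.92), and the remaining genes of the stretch held 70.6% of the beta reads in ES cells and 51.5% in forebrain.

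*Pcdhb17* (chromosome 18, 37644675 to 37647943) had an RPKM of 9.15 in ES cells from 24 reads (5.75 to 13.3) and of 12.7 in forebrain from 51 reads (9.52 to 16.8). It was the highest beta gene in ES cells. Its interval there overlaps that of the gene next in order, *Pcdhb22* (1.38 to 6.28), and lies above those of the other beta genes. The 1.39-fold difference between the samples has an interval of 0.86 to 2.42, which includes no difference. *Pcdhb18* was similar, with 2.06 and 2.99 and a ratio of 1.45-fold (0.57 to 3.39). *Pcdhb16*, next after *Pcdhb22* in ES cells, had 2.09 there from 9 reads and 6.05 in forebrain from 39 reads, a 2.89-fold difference (1.38 to 6.82).

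The other genes of this stretch differed more between the samples. *Pcdhb22* (chromosome 18, 37678007 to 37681073), the last gene of the cluster, had the highest beta value in forebrain, 21.2 from 79 reads (16.7 to 26.3). In ES cells it had 3.07 from 8 reads (1.38 to 6.28), and the ratio was 6.90-fold (3.20 to 15.9). The forebrain interval of *Pcdhb22* touches that of *Pcdhb17* at its lower end and lies above those of the other beta genes. *Pcdhb19*, with the longest exon (7131 bp), had 0.73 in ES cells and 9.51 in forebrain from 83 reads, 13.03-fold higher (5.24 to 52.3). *Pcdhb21* was 9.39-fold higher (3.00 to 47.4), with 0.79 and 7.42. *Pcdhb20*, the annotated pseudogene, had 1.10 in ES cells and 4.58 in forebrain from 20 reads, so reads were assigned to it in both samples. *Pcdhb15*, the first gene of the stretch, had no read in ES cells and 2.95 in forebrain.

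Of the 21 beta genes, 15 had at least 1 whole read in ES cells after rounding, which gives ratios from 1.39-fold to 28.3-fold. The interval of the ratio included 1 for *Pcdhb14*, *Pcdhb17* and *Pcdhb18* and lay above 1 for the others with a ratio. How often this holds among all genes was not computed, so it describes single genes and not the beta cluster as a set. The other 6 beta genes have lower bounds from 1.02-fold to 6.41-fold.

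Values were also set against position along the cluster. Across the 21 genes, the Spearman rho with rank by start was 0.54 for RPKM in ES cells, 0.01 for RPKM in forebrain and -0.42 for the log2 ratio. With the unlisted *Pcdhb1* added at 0 in both samples these were 0.58, 0.14 and -0.24, and without *Pcdhb17* they were 0.50, -0.10 and -0.40. The genes share libraries and, in part, reads, and most ES cell values rest on fewer than 3 reads, so these figures are descriptions. The rho between the RPKM of both samples was 0.42. With exonic length it was 0.29 for ES cells and 0.07 for forebrain, and with exonic GC content -0.40 and 0.07. The GC content itself ranged from 41.2% to 52.7% with a median of 46.8%. The lowest values, from 41.2% to 44.7%, belong to *Pcdhb16* and to *Pcdhb18* to *Pcdhb21* of the last stretch.

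The promoters, taken as 250 bp before to 50 bp after the annotated start, had an observed over expected ratio of CpG dinucleotides of 0.21 to 0.85 in the beta genes. Their median, 0.43, was close to the 0.47 of 29307 listed genes with a promoter sequence. The GC content of these windows was 39.7% at the median, lower than the 53.0% of all genes. The CpG ratio had a rho of -0.10 with RPKM in ES cells and of 0.12 in forebrain. An annotated start may differ from the one used.

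The beta genes are close relatives, which limits how well short reads can be assigned. Over 231 pairs of the 22 annotated genes, identity at aligned exonic bases ranged from 55.1% to 89.6% with a median of 67.1%. The closest pair was *Pcdhb6* and *Pcdhb8*. The share of stretches of 50 bp that occur unchanged in another clustered protocadherin entry was 1.81% for *Pcdhb13*, 11.99% for *Pcdhb12* and 4.0% at the median. Many values did not correspond to whole numbers of reads. In ES cells 9 of 21 beta genes came to within 0.05 of a whole number beyond the rounding of RPKM, of which 4 were at 0, and *Pcdhb9*, *Pcdhb13*, *Pcdhb4* and *Pcdhb10* came to 0.25, 0.24, 0.70 and 0.74 of a read. In forebrain 1 of 21 did, *Pcdhb15*. For the lowest genes, a value above 0 need not mean that any read belongs to that gene alone. The share of common 50 bp stretches had a rho of 0.18 with the log2 ratio.

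Other transcripts lie between the first and last member. Of 7 such entries, *Gm10545* and *Gm10544* lie within the alpha cluster on the opposite strand, and *SNORA40* and *Gm16882* within the gamma cluster. *Gm16882* is a long noncoding RNA antisense to gamma exons, with 1647 bp of exon in common. It had an RPKM of 55.0 in ES cells from 275 reads and of 93.7 in forebrain from 700 reads, 1.71-fold higher (1.48 to 1.97). *Gm10545* shares 2790 bp of exon with *Pcdha1*, and had 0.49 in ES cells and 1.98 in forebrain from 2 and 12 reads. The sources used here do not state whether strand entered the counting, so the reads of these pairs may be mixed. *Gm10544* had 0 and 3.02, the latter from 15 reads, at least 3.35-fold higher in forebrain. *SNORA40*, a small nucleolar RNA, had 1 read and 4 reads.

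The genes placed between beta and gamma differed from the clusters around them. *Taf7*, a subunit of the general transcription factor TFIID, had an RPKM of 4748 in ES cells and 1204 in forebrain, 0.25 times as high (0.24 to 0.26). *Slc25a2*, a mitochondrial ornithine carrier, had 39.0 and 13.4 from 43 and 22 reads, 0.34 times as high (0.20 to 0.59). By contrast, *3222401L13Rik* had 38.8 and 58.7, 1.51-fold higher in forebrain (1.17 to 1.96). The forebrain difference of the protocadherins thus did not extend to all entries of the interval.

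The genes around the clusters showed no common direction. Of 15 fixed neighbours, *Taf7* and *Slc25a2* included, 1 was at least 2-fold higher in forebrain, 3 at least 2-fold lower and 11 neither, with a median log2 ratio of 0.14. The higher gene was *Cd14*, with 5.44 and 18.2 from 7 and 35 reads. *Dnd1*, which encodes an RNA-binding protein of germ cells, was 0.28 times as high in forebrain, with 344 and 97.7. *Diap1*, the formin gene that follows the gamma cluster, had 263 and 180. *Hdac3*, a histone deacetylase gene, had 1612 and 2102.

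Protocadherins outside the clusters were all higher in forebrain too. Of 12 fixed genes, 12 were at least 2-fold higher in forebrain, with a median log2 ratio of 4.23. *Pcdh18* was highest in forebrain, with an RPKM of 12.9 in ES cells and 2158 in forebrain. *Pcdh19* had 9.73 and 207, and *Pcdh7* had 3.74 and 190. *Pcdh12*, known from endothelial cells, had 0.64 and 161, and *Pcdh1*, located beyond the gamma cluster on the same chromosome, had 11.4 and 46.3. The lowest was *Pcdh15*, a component of hair cell tip links, with 0.11 and 1.85. In forebrain, 11 of these genes (all but *Pcdh15*) had a higher RPKM than each beta gene.

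**Figure D4:**
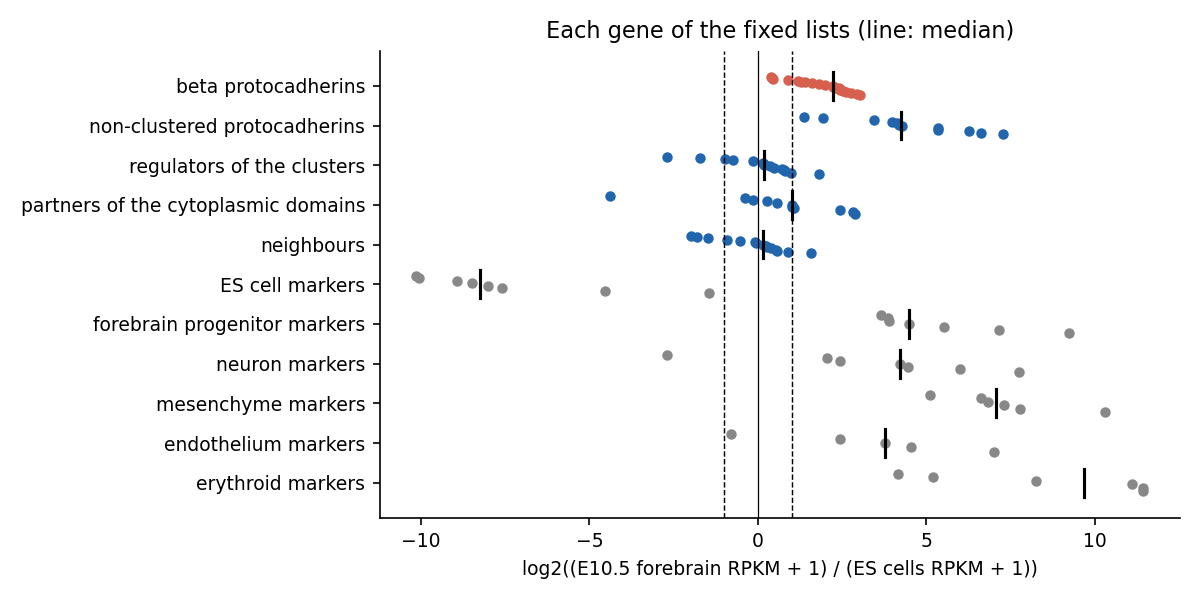
Log2 ratio of E10.5 forebrain over ES cells (log2 of RPKM + 1, x axis) for each gene of the beta cluster (red), of 4 related lists (blue) and of the marker lists (grey), with a line at each median and dashed lines at a 2-fold difference. Beta genes (median 2.23) lie between the non-clustered protocadherins (median 4.23) and the regulators and neighbours of the clusters (medians 0.18 and 0.14).

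Genes known to act on the clusters were expressed in both samples. Of 15 fixed regulators, 1 was at least 2-fold higher in forebrain, 2 were at least 2-fold lower and 12 neither. *Ctcf*, whose product binds the promoters and enhancers of the clusters, had 1402 in ES cells and 1545 in forebrain. The cohesin genes *Rad21* (1609 and 2644) and *Smc3* (1909 and 1728) differed by less than 2-fold. *Smchd1*, a repressor of the clusters, had 1271 and 2502, or 1.97-fold (1.92 to 2.02). *Dnmt1*, which maintains DNA methylation, had 3272 and 3672, whereas the de novo methyltransferase genes differed by more than 2-fold and in opposite directions. *Dnmt3b*, which methylates variable promoters in the early embryo, was 0.15 times as high in forebrain, with 1515 and 234, whereas *Dnmt3a* was 3.52-fold higher, with 183 and 643. *Rest*, a repressor of neuronal genes, was 0.30 times as high, with 2348 and 716.

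Partners of the protocadherin cytoplasmic domains were mixed. Of 11 fixed genes, 4 were at least 2-fold higher in forebrain, 1 at least 2-fold lower and 6 neither. The higher genes were *Cyfip2* (41.1 and 308) and *Abi2* (431 and 902) of the WAVE complex, the kinase gene *Fyn* (67.9 and 488), and *Adam10* (167 and 908), whose product sheds protocadherin ectodomains. The kinase genes *Ptk2b* and *Ptk2*, whose products are bound by these domains, had 144 and 5.92, and 995 and 1466, respectively.

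Most markers of several cell types were higher in forebrain, where 25.8% of all genes were at least 2-fold higher. Of 8 neuron markers 7 are listed under the symbol used here (all but *Map2*, to which no value is assigned), and 6 of these were at least 2-fold higher in forebrain. *Dcx*, a gene of young neurons, had 0.19 and 253, while *Stmn2* was lower in forebrain, with 6910 and 1056. All 6 mesenchyme markers, 4 of 5 endothelial markers (all but *Pecam1*, which was lower) and all 6 erythroid markers were also at least 2-fold higher in forebrain. Their part in the higher protocadherin values was not tested.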

How the data were processed

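RNA-seq tables of 1 ES cell and 1 E10.5 forebrain sample were used. Per the labels and the methods, the authors depleted rRNA, built strand-specific single-end libraries (Bowtie 0.12.7 in the submitters' processing notes; the labels give 100 bp reads, the methods a shorter length), mapped to NCBIM37 (mm9) with HTSstation and deposited 1 RPKM value per gene, unreplicated and of unstated scaling per sample. The other columns hold positions and symbols.

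All 29311 identifiers and coordinates matched GENCODE vM1 of the same build, from which exonic lengths were computed. RPKM was used without rescaling. The step of 1 read, 1.22 per kb in ES cells and 0.819 in forebrain, was the most frequent value of RPKM multiplied by exon kb among genes with up to 2500 bp of exon. Of the low values, 59.3% (of 6106) and 60.6% (of 5844) lay within 0.05 of whole multiples, and others at simple fractions. Reads were rounded for exact Poisson and Clopper-Pearson 95% intervals, which cover counting error only. A floor of 3 reads stood for 0. With 1 sample per group no test was made, and at least 2-fold on log2(RPKM + 1) served as the rule of size. Step estimation and intervals were tested on simulated data of whole reads, which leaves out the fractions of reads seen in the real values.

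Members and gene lists were chosen with earlier results of these data known. Named were genes first, last, highest, lowest and with extreme ratios in each cluster, and genes of the lists, not all of which are described. From the forebrain progenitor markers, 1 gene is not reported here. Exons were aligned with mafft 7.526, and the analysis ran under Python 3.11.15 with scipy 1.17.1, numpy 2.4.6, matplotlib 3.10.9 and pandas 2.3.3. Alternatives covered pseudocount, scaling, filters, fold and single members.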

Additional observations from a re-analysis of the deposited data

How the results depend on the processing

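In each setting run, all 24 entries (23 protein-coding ones) stayed higher in E10.5 forebrain and 0 were at least 2-fold lower. The pseudocount, the fold limit and the filters could not change the direction, which only a rescaling of the samples could. For the 4 entries at 0 in ES cells a rescaling could not change it either. Of the rescalings, the upper quartile alone lowered forebrain, and moved the median log2 ratio of all genes from 0.01 to -0.06. With a pseudocount of 5 in place of 1, the entries at least 2-fold higher numbered 11 instead of 19 (20.7% of all genes), and the median log2 ratios of alpha, beta and gamma were 0.58, 0.80 and 1.30. With 0.1 they were 2.40, 3.39 and 1.36. A 4-fold limit gave 12 entries (14.4% of all genes). Division by column totals, which moves the median of all genes to 0.26, gave 1.60, 2.46 and 1.62. The upper quartile gave 1.35, 2.16 and 1.26, scaling per 1000000 inferred reads 1.47, 2.32 and 1.44, and protein-coding beta genes alone 2.24. In ES cells, detection changed from 20 entries to 10 with at least 3 reads, 7 with an RPKM of at least 1 and 3 with at least 10 reads. A minimum of 3 reads in either sample removed no entry and so could change nothing.

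Chosen after seeing the data, leaving out *Pcdhb17* moved the beta ratio from 5.52 to 7.52 (5.58 to 10.1), whereas the planned omission of *Pcdhb19* gave 5.06 (3.93 to 6.56). Without *Pcdhb17*, the rho with position was 0.50 in ES cells, -0.10 in forebrain and -0.40 for the log2 ratio. With *Pcdhb1* at 0 these were 0.58, 0.14 and -0.24. Positions without C-type isoforms could not be run, since these have no entry. Of 55 alternatives, 27 left the value as it was, a count within 1.5 times or the beta ratio within its counting interval. Some of these 27 could not differ, among them those of the minimum of 3 reads in either sample, so the number is no measure of stability. No paired analysis was possible because each group has 1 sample. Fewer than 3 reads lie behind 14 of 24 entries in ES cells, so lower levels there are not detectable at this depth.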
